A study of Caenorhabditis elegans with 7 samples.

Results

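The 10 genes described here encode some of the enzymes that make and break down trehalose and glycogen in the nematode Caenorhabditis elegans. Of glycogen breakdown they include only agl-1, and glycogen phosphorylase is in a list of other genes given further below. On the side of synthesis are tps-1, tps-2, gob-1 and gsy-1, and on the side of breakdown tre-1, tre-2, tre-3, tre-4, tre-5 and agl-1. They were taken by symbol from the authors' deposited comparison table, and all 10 were found among 44968 counted features. Polyadenylated RNA was sequenced from larvae of the first stage (L1) that had hatched without food, in 4 libraries of DR progeny (A to D) and 3 of AL progeny (A to C). DR progeny came from parents under dietary restriction, with the bacterium HB101 at 3.1 per mL, and AL progeny from parents fed ad libitum at 25 per mL. The labels give the DR amount in ml and the AL amount in mg, whereas the deposited notes give mg for both. Both groups were the wild-type strain N2, both sets of parents spent 96 hr in liquid culture at 1 animal per 100 µL, and both sets of larvae were frozen after 24 hr in a medium without food. Whole larvae were used, so every value is an average over all tissues.

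Trehalose is a sugar built from a pair of glucose units. Trehalose-6-phosphate synthases, encoded by tps-1 and tps-2, join activated glucose to glucose-6-phosphate, the phosphatase encoded by gob-1 removes the phosphate, and trehalases, encoded by the tre genes, split trehalose back into glucose. Glycogen synthase, encoded by gsy-1, extends the branched glucose polymer glycogen, and the debranching enzyme encoded by agl-1 removes its branches during breakdown. In worms trehalose protects against desiccation and other stress, and its synthesis has been linked to survival of starvation during L1 arrest. Loss of gob-1 blocks the gut and kills larvae.

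In DR progeny agl-1 stood at 0.786 times, tre-5 at 0.617 times, tre-3 at 0.837 times and tps-2 at 0.858 times the AL level, while tre-1 (1.06 times) and tre-2 (1.09 times) lay slightly above it. None of the 10 genes passed an adjusted p of 0.05 over the 14867 features tested with edgeR's quasi-likelihood test. That threshold was passed by 2 features, amt-1 and K02E7.6, which are 0.0135% of those tested. All 10 genes passed the filter on low counts, and their adjusted p lay between 0.372 and 0.910. Unadjusted p-values under 0.05 were found for 4 of the 10, against 10.7% of all features, and 8 of the 10 had a log2 fold change below 0, against 48.4%. The median log2 fold change of the 10 was -0.12, against 0.0078 over all features. Because whole larvae were sequenced, fewer cells of a type and less RNA per cell cannot be told apart.

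**Figure D1:**
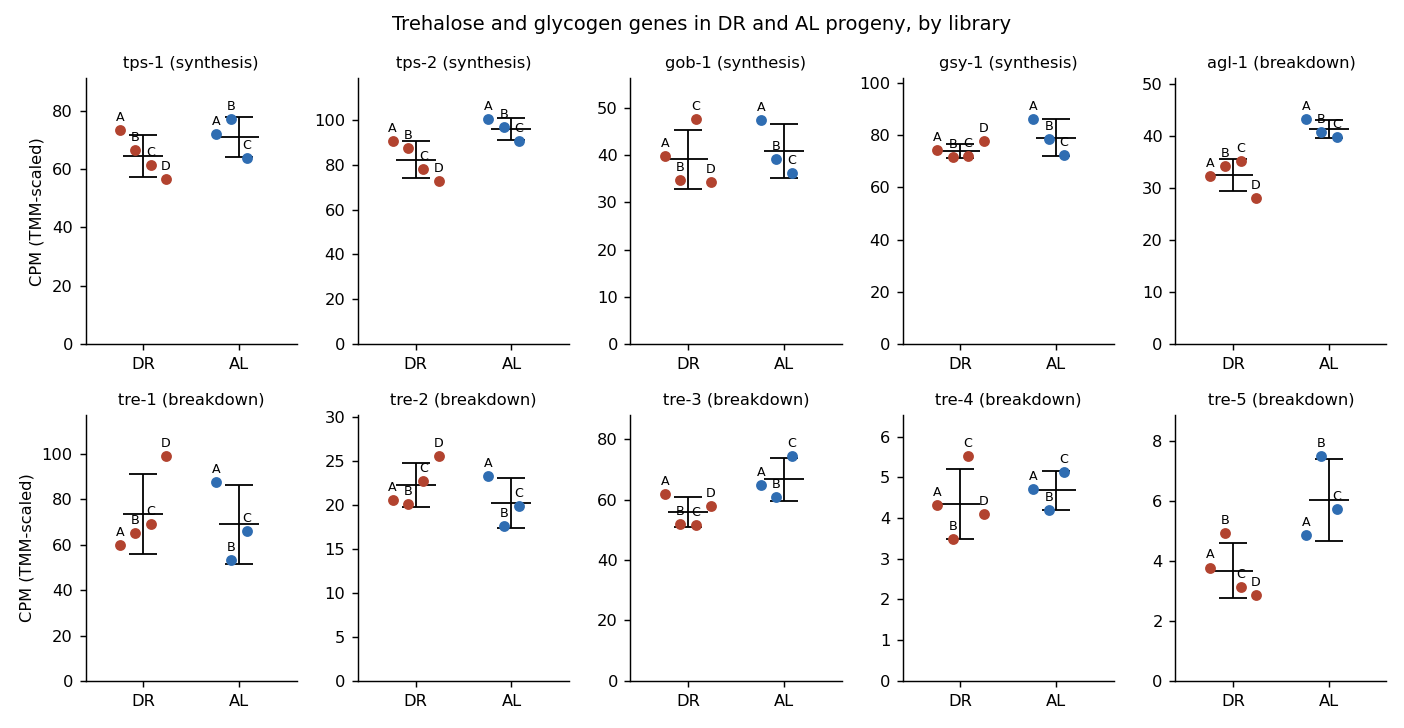
TMM-scaled CPM (counts per 1000000 counts of the library) of each gene in the 4 DR libraries and, to their right, the 3 AL libraries, with the library letter above each point and the mean ± SD as bars; each vertical axis starts at 0. The groups are apart for agl-1 (28.2 to 35.2 in DR and 39.9 to 43.3 in AL libraries) and touch for tps-2, and DR D and AL A are the high libraries of tre-1.

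Each library held 16626117 to 22952310 counts over its features, and levels are given as CPM, counts per 1000000 counts of a library whose total was scaled with TMM, edgeR's trimmed mean of log ratios. A count of 0 allows up to 0.131 to 0.180 CPM, counting error only. The study's design text calls the samples biological replicates without saying how cultures were kept apart. Ribosomal RNA took 22.5% of the counts of DR D, while DR A, B and C had 11.01% to 12.2% and the AL libraries 7.54% to 11.8%. The 9 genes for yolk and eggshell proteins, which belong to adults and eggs, summed to 737 CPM in DR C, while DR A, B and D had 88.3 to 109 CPM and the AL libraries 102 to 137 CPM. The 7 moulting genes summed to 71.6 CPM in DR B and 76.4 CPM in AL B, against 28.7 to 42.0 CPM elsewhere. The intestine list, with 7 of 8 genes matched and none at 0, summed to 1893 to 2260 CPM in DR and 2438 to 2628 CPM in AL libraries. The body wall muscle list, with hlh-1 listed at 0 throughout, summed to 6343 to 8868 CPM in DR and 8996 to 9271 CPM in AL libraries. Neuron genes summed to 598 to 677 CPM in DR and 628 to 655 CPM in AL libraries, and pharynx genes to 2689 to 3206 CPM in DR and 2361 to 3060 CPM in AL libraries. Hypodermis genes summed to 183 to 221 CPM in DR and 188 to 218 CPM in AL libraries, and germ cell genes to 29.0 to 37.1 CPM in DR and 31.4 to 41.5 CPM in AL libraries. The rRNA share and the moulting gene level were each tried as a covariate, and some of the values under them are given below. The part of the other lists in the values below was not tested. File names carry a pair of prefixes, the 1st with DR A, DR B, DR C and AL A, the 2nd with DR D, AL B and AL C. Values within the 1st prefix therefore rest on AL A as the sole AL library, those within the 2nd on DR D as the sole DR library.

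Compared per kilobase of exon, the genes differed widely in level. Over all 7 libraries tre-1 averaged 32.4 CPM per kilobase, gsy-1 31.1 and tre-3 30.7, and the ranges of these 3 genes overlapped. Next came tps-2 at 22.9 CPM per kilobase and gob-1 at 20.4, with tps-2 above gob-1 in 6 of 7 libraries. Below them stood tps-1 at 15.4 CPM per kilobase, under gob-1 in 7 of 7 libraries. Exon length includes untranslated bases: gob-1 has 1950 bases of exon and a longest coding sequence of 1317, tps-2 3839 and 3687. Per kilobase of coding sequence, gob-1 would stand above tps-2, so that the order of this pair depends on the length used. The trehalase gene tre-2 had 9.97 and agl-1 7.62 CPM per kilobase, and their ranges overlapped. The trehalase genes tre-4 (2.27) and tre-5 (2.20) were the lowest and did not differ beyond their spread. The gap between tre-3 and tps-2, that between tps-1 and tre-2 and that between agl-1 and tre-4 were crossed by no library.

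**Figure D2:**
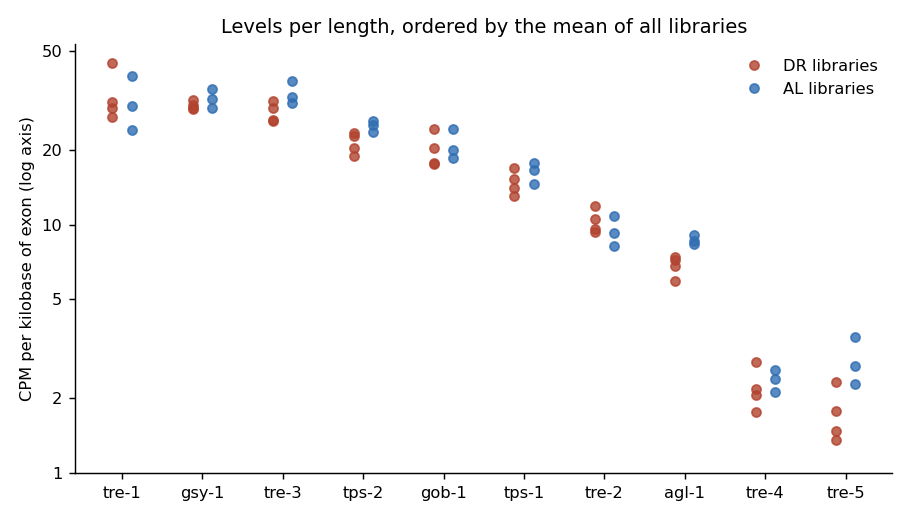
CPM per kilobase of exon on a log axis for each gene, ordered by its mean over all libraries, with each DR library as a point to the left and each AL library as a point to the right. The genes run from tre-1, gsy-1 and tre-3 near 31 to 32 CPM per kilobase down to tre-4 and tre-5 near 2.2.

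On the side of synthesis, 0 of 4 genes passed the test in either direction and all 4 had a log2 fold change below 0, with a median of -0.12. The synthase gene tps-2 (F19H8.1, chromosome II) had 90.4, 87.6, 78.2 and 72.6 CPM in DR A, B, C and D, against 100.4, 96.7 and 90.4 CPM in AL A, B and C. Every DR library lay below every AL library, but DR A (90.37 CPM) and AL C (90.41 CPM) were almost equal, and with size factors in place of TMM scaling they overlapped (90.38 against 90.25 CPM). Over all features tested, 5.88% had every DR library below every AL library. The mean of tps-2 was 82.2 ± 8.26 CPM in DR and 95.8 ± 5.04 CPM in AL progeny (SD, n = 4 and 3), a log2 fold change of -0.22 ± 0.10 (SE, 95% interval -0.44 to -0.0043, adjusted p = 0.458, edgeR). Adding the share of rRNA as a covariate gave -0.13 (adjusted p = 0.912; range over all alternatives 0.192 to 0.999).

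The other synthase gene tps-1 (ZK54.2, chromosome X) had 73.5, 66.6, 61.2 and 56.7 CPM in DR A, B, C and D, against 72.1, 77.1 and 63.6 CPM in AL A, B and C. The groups overlapped, with DR A above AL A and AL C. The log2 fold change was -0.14 (95% interval -0.37 to 0.10, adjusted p = 0.661, edgeR), and it was -0.05 once each library's trend with gene length had been removed and -0.30 within the 2nd file-name prefix. It was -0.073 without AL B, -0.080 without DR D, -0.21 without AL C and -0.066 after adding the share of rRNA. The phosphatase gene gob-1 (H13N06.3, chromosome X) had 39.7, 34.6, 47.6 and 34.3 CPM in DR A, B, C and D, against 47.3, 39.1 and 36.1 CPM in AL A, B and C. The highest library of each group, DR C and AL A, stood at nearly the same level, and the log2 fold change of -0.07 (95% interval -0.35 to 0.22) turned to 0.06 without AL A and to 0.05 after adding the share of rRNA. It was -0.011 without DR B, -0.010 without DR D, -0.15 without AL C and -0.17 without DR C. The glycogen synthase gene gsy-1 (Y46G5A.31, chromosome II) varied least of the 10, with 74.2, 71.6, 72.1 and 77.7 CPM in DR A, B, C and D, against 86.2, 78.7 and 72.4 CPM in AL A, B and C. AL A was its highest library and AL C lay within the DR range. Its log2 fold change was -0.10 (95% interval -0.30 to 0.10), with -0.25 and 0.05 within the 1st and 2nd prefix, -0.03 without AL A and -0.16 without AL C.

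On the side of breakdown, 0 of 6 genes passed the test in either direction, 4 had a log2 fold change below 0 and 2 above 0, and the median was -0.18. The debranching enzyme gene agl-1 (R06A4.8, chromosome II) had 32.3, 34.2, 35.2 and 28.2 CPM in DR A, B, C and D, against 43.3, 40.8 and 39.9 CPM in AL A, B and C. Every DR library lay below every AL library, as was so for 5.88% of all features tested. The same held for agl-1 under each of the 4 scalings tried, which all rescale the same counts. The means were 32.5 ± 3.11 CPM in DR and 41.3 ± 1.76 CPM in AL progeny (SD, n = 4 and 3), a log2 fold change of -0.35 ± 0.10 (SE, 95% interval -0.56 to -0.14). It had the smallest p of the 10 genes (unadjusted 0.00375, adjusted 0.372, edgeR). Within the 1st prefix, with AL A alone for its group, the log2 fold change was -0.35. Within the 2nd, with DR D alone for its group, it was -0.51. AL A was the highest and DR D the lowest of all libraries for agl-1. After adding the share of rRNA the log2 fold change was -0.24, and with the length trend removed -0.25. With the share of rRNA, agl-1 had r = -0.85 over the libraries and tps-2 -0.79, while the other genes lay between -0.59 and 0.51. These r were not tested. The intestine and body wall muscle lists above, as sums, had the same separation of groups, and their part in the difference of agl-1 was not tested. The intestine sum was mostly ifb-2 (1330 CPM in DR and 1625 CPM in AL progeny) and vha-6 (378 CPM in DR and 503 CPM in AL progeny), while elt-2 and pho-1 had log2 fold changes of 0.16 and 0.15; these 4 were picked out after their values were seen, and none of them passed the test. In the authors' deposited table, from an exact test, agl-1 has -0.35 on the log2 scale with an adjusted p of 0.234, and 0.283% of the genes there, none of the 10 among them, had an adjusted p under 0.05. Of its exon bases 1.91% are shared with elof-1 on the opposite strand, where reads of both genes cannot be told apart. Among the other genes, tre-4 shares 2.58% of its exon bases with efn-3 on the opposite strand. For tps-2 the share is 0.63%, with arl-3 on the same strand.

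The trehalase gene tre-5 (C23H3.7, chromosome II) had the largest log2 fold change of the 10 and few reads. Its raw counts were 78, 109, 60 and 45 in DR A, B, C and D, against 112, 127 and 119 in AL A, B and C, so that counting error alone came to between 8.87% and 14.9% of a value. This made 3.78, 4.92, 3.13 and 2.88 CPM in DR libraries, against 4.84, 7.50 and 5.71 CPM in AL libraries. The groups met at DR B and AL A, and each group's highest value stood in the library where the moulting genes were highest, DR B and AL B. Its log2 fold change was -0.70 ± 0.22 (SE, 95% interval -1.18 to -0.21, adjusted p = 0.376, edgeR). Within the 1st prefix, with AL A alone for its group, it was -0.29, and within the 2nd, with DR D alone for its group, -1.19. It was -0.58 with the moulting gene level as a covariate and -0.51 without AL B, the highest library. The authors' deposited table gives -0.70 with an adjusted p of 0.282.

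The trehalase gene tre-3 (W05E10.4, chromosome V) had 62.0, 51.8, 51.7 and 58.0 CPM in DR A, B, C and D, against 64.7, 60.8 and 74.5 CPM in AL A, B and C. Only DR A reached into the AL range, just above AL B. Its log2 fold change was -0.26 ± 0.10 (SE, 95% interval -0.48 to -0.03, edgeR, adjusted p = 0.424), with -0.23 in the 1st and -0.22 in the 2nd prefix and -0.17 without AL C, the highest library. The trehalase gene tre-4 (F15A2.2, chromosome X) had 4.31, 3.48, 5.53 and 4.09 CPM in DR A, B, C and D, against 4.71, 4.19 and 5.13 CPM in AL A, B and C, from 64 to 109 counts. DR C lay above all AL libraries, and the log2 fold change was -0.11 (95% interval -0.52 to 0.31). It was -0.012 without DR B, -0.037 without AL C and -0.24 without DR C.

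The trehalase gene tre-1 (F57B10.7, chromosome I) had 59.8, 65.2, 69.3 and 99.3 CPM in DR A, B, C and D, against 87.6, 53.3 and 66.2 CPM in AL A, B and C. DR D and AL A stood apart from the other 5 libraries, which lay between 53.3 and 69.3 CPM. The SD within groups was 0.34 on the log2 scale, next to 0.33 for tre-5 and a median of 0.20 over all features tested, and the log2 fold change was 0.08 (95% interval -0.40 to 0.57, adjusted p = 0.910, edgeR). Within the 1st prefix, with AL A alone for its group, it was -0.44, and within the 2nd, with DR D alone for its group, it was 0.74. Each of these values rests on a single library of 1 group, assumed to vary like the other group, and the difference between them was not tested. Without DR D the log2 fold change was -0.09, without AL B -0.07 and without AL A 0.29. The trehalase gene tre-2 (T05A12.2, chromosome IV) had the same 3 highest libraries, DR D, AL A and DR C, and the same lowest, AL B. It had 20.6, 20.1, 22.7 and 25.6 CPM in DR A, B, C and D, against 23.3, 17.7 and 19.9 CPM in AL A, B and C, a log2 fold change of 0.13 (95% interval -0.14 to 0.40). Within the prefixes this was -0.14 and 0.45, and it was 0.043 without AL B, 0.057 without DR D and 0.24 without AL A.

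**Figure D3:**
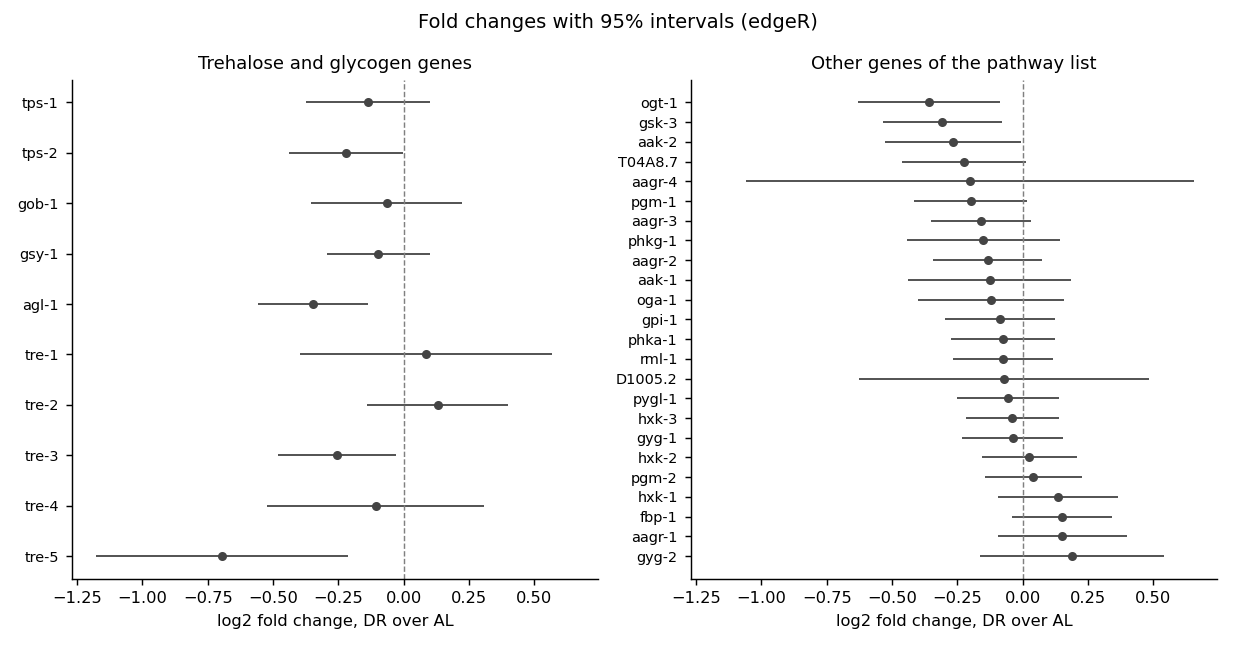
Log2 fold changes of DR over AL progeny (horizontal axis) with 95% intervals for the 10 genes on the left and the 24 other genes of the pathway on the right. The intervals of tps-2, agl-1, tre-3 and tre-5 on the left and of gsk-3, ogt-1 and aak-2 on the right lie below 0, but no adjusted p passed the threshold.

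Over the 7 libraries, the 2 pairs with the highest r among the 45 pairs of genes were each of the same enzyme family, and 0 pairs passed adjustment. The other pairs of trehalase genes had r from -0.84 (tre-2 with tre-5) to 0.44 (tre-3 with tre-5). Next in r came pairs across families: tps-2 with agl-1 (0.83), tps-2 with tre-5 (0.80) and tre-5 with agl-1 (0.76). The file-name prefixes hold 4 and 3 libraries, too few for an r within each. For tre-1 and tre-2 Pearson's r was 0.93 (exact permutation p = 0.00119, adjusted p = 0.0536) and Spearman's rho 0.86 (exact permutation p = 0.0238, adjusted p = 0.357). Without DR D and AL A, the 2 libraries farthest from the median of tre-1, r was 0.84. For tps-1 and tps-2 r was 0.89 (exact permutation p = 0.00635, adjusted p = 0.143) and rho 0.75 (exact permutation p = 0.0663, adjusted p = 0.496), with r of 0.76 without DR D and AL B. The pair tre-2 and tre-5 ran in opposite directions (r = -0.84, exact permutation p = 0.0177, adjusted p = 0.214; rho = -0.89, exact permutation p = 0.0123, adjusted p = 0.357). Without DR D and AL B, the 2 libraries farthest from the median of tre-2, r was -0.47, so that its size rests in part on those libraries. With each group's mean taken out r was -0.92. For gsy-1 and agl-1 r was 0.40 (exact permutation p = 0.389, adjusted p = 0.762) and rho 0.43 (exact permutation p = 0.354, adjusted p = 0.758). Without AL A and AL B, which leaves AL C as the sole AL library, r was -0.84. With each group's mean taken out it was -0.14, and over the 4 DR libraries alone -0.98. The sign of r therefore depended on the libraries used and on the difference between the groups. In all, 6 pairs had an unadjusted exact permutation p under 0.05, and 30 of 45 had r above 0.

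**Figure D4:**
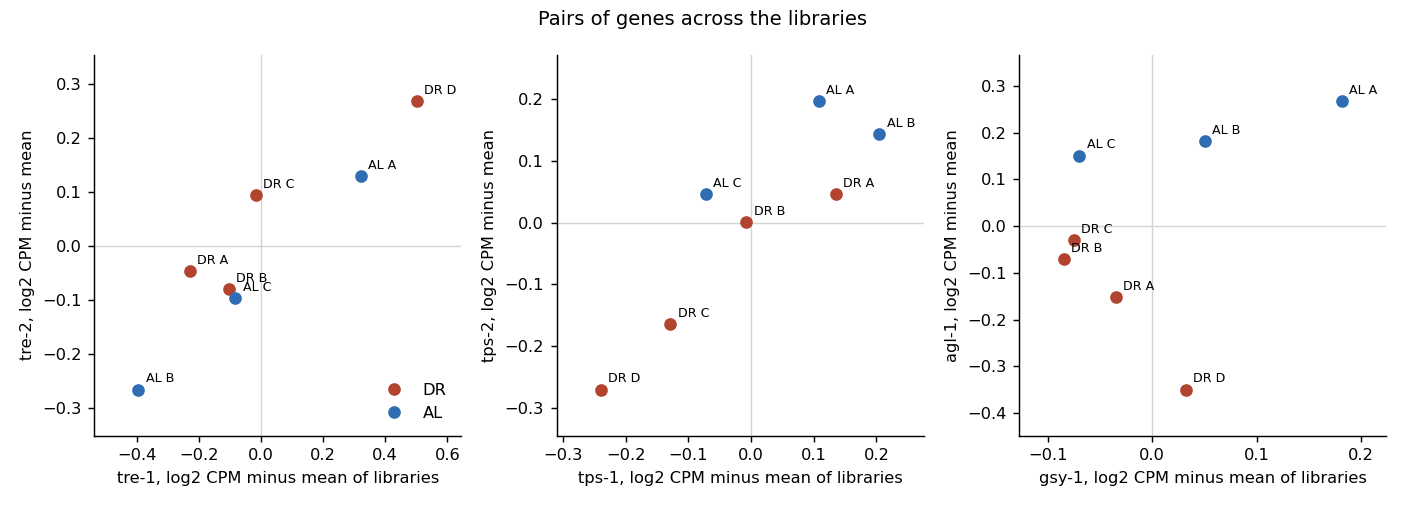
Log2 CPM of a pair of genes in each panel, as the difference from the gene's mean over the 7 libraries, with DR libraries in red and AL libraries in blue. The libraries line up for tre-1 with tre-2 (r = 0.93) and for tps-1 with tps-2 (r = 0.89), and for gsy-1 with agl-1 the AL libraries lie above the DR libraries on the agl-1 axis.

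Of 8 ratios and shares among the genes, computed per kilobase of exon, 2 had groups that did not overlap; these are descriptions with no test, picked out after their values were seen. The ratio of gsy-1 to agl-1 was 4.45, 4.06, 3.98 and 5.35 in DR A, B, C and D, against 3.86, 3.74 and 3.52 in AL A, B and C. Of the level summed over the 5 trehalase genes, tre-2 took 13.3%, 13.5%, 14.6% and 13.3% in DR A, B, C and D, against 12.3%, 11.9% and 11.2% in AL A, B and C. By comparison, 11.9% of all single features tested had groups that did not overlap in either direction. The ratio of the summed trehalase genes to the summed synthase genes overlapped, at 1.78 to 2.81 in DR and 1.61 to 2.16 in AL libraries. So did the ratio of tps-2 to tps-1, at 1.40 to 1.49 in DR and 1.42 to 1.61 in AL libraries. The largest shares of the summed trehalase level were those of tre-1, at 37.5% to 50.1% in DR and 35.0% to 45.0% in AL libraries, and of tre-3, at 32.8% to 43.7% in DR and 37.3% to 46.0% in AL libraries.

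The 24 other genes of the pathway, from glycogen phosphorylase, glycogenin and hexokinase to the energy sensor AMPK, were all tested, and 0 passed in either direction. Their log2 fold changes had a median of -0.08 and were below 0 for 18 and above 0 for 6, against 48.4% of all features tested below 0. Values follow for 4 of the 5 of smallest p. The glycogen synthase kinase gene gsk-3, whose product inhibits glycogen synthase in mammals, had 50.4 ± 5.47 CPM in DR and 62.5 ± 5.54 CPM in AL progeny (log2 fold change -0.31; edgeR, adjusted p = 0.376). The gene ogt-1, for the transferase that adds N-acetylglucosamine to proteins, had 206, 231, 216 and 157 CPM in DR A, B, C and D, against 272, 259 and 247 CPM in AL A, B and C. Every DR library lay below every AL library for ogt-1 and aagr-3, 2 of the 24 genes, against 5.88% of all features tested. The log2 fold change of ogt-1 was -0.36 (edgeR, adjusted p = 0.376). In the 1st prefix alone this was -0.32, in the 2nd, with DR D as the sole DR library, -0.68, and after adding the share of rRNA -0.18. The AMPK catalytic subunit gene aak-2 had 90.1 ± 12.4 CPM in DR and 108 ± 10.4 CPM in AL progeny, a log2 fold change of -0.27 (adjusted p = 0.454; range over all alternatives 0.0984 to 0.999) that was -0.11 after adding the share of rRNA and -0.45 in the 2nd prefix. The phosphoglucomutase gene pgm-1 had 43.02 ± 3.94 CPM in DR and 49.5 ± 4.14 CPM in AL progeny, a log2 fold change of -0.20 (adjusted p = 0.496; range over all alternatives 0.145 to 0.999) that was -0.020 in the 1st and -0.44 in the 2nd prefix. The glycogen phosphorylase gene pygl-1, whose enzyme works alongside the debranching enzyme, had a log2 fold change of -0.06 (134 ± 8.18 CPM in DR and 139 ± 5.17 CPM in AL progeny) and was chosen after its values were seen.

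The feature most like each gene across the 7 libraries was sought among 5519 or 5520 named features with a mean of at least 10 CPM, and is given as a description. The highest r lay with dve-1 for tps-1 (0.97), cars-1 for tps-2 (0.99), eef-1G for gob-1 (0.98) and sago-1 for gsy-1 (0.97). On the breakdown side it lay with ent-2 for tre-1 (0.98), nhr-143 for tre-2 (0.99), gid-7 for tre-3 (0.89), lhgd-1 for tre-4 (0.96), hex-3 for tre-5 (0.99) and cka-1 for agl-1 (0.99). Each r is the highest of all features compared and carries no test.

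**Figure D5:**
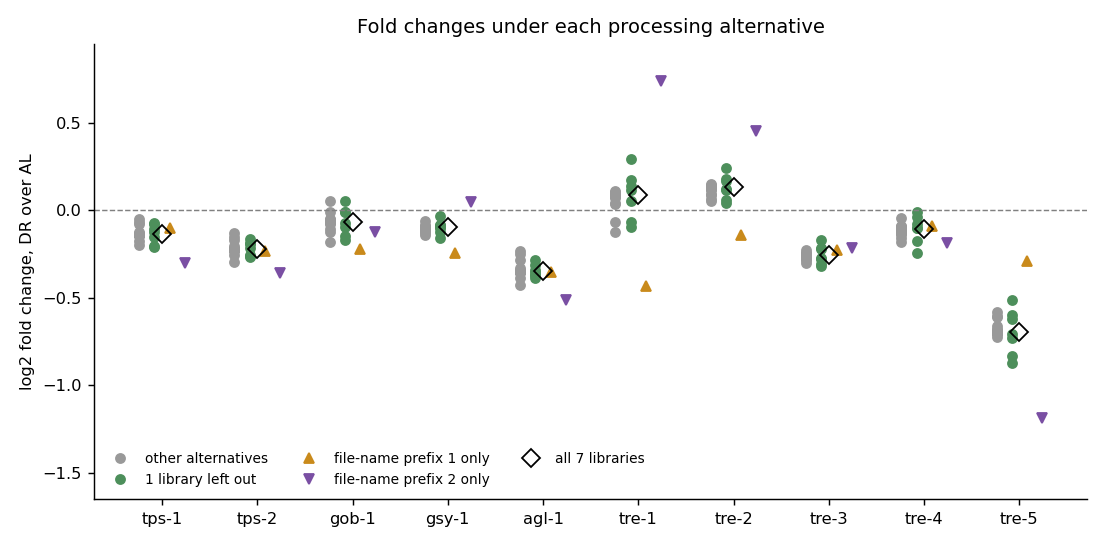
Log2 fold change of DR over AL progeny for each gene under each processing alternative: all 7 libraries as open diamonds, 1 library left out in green, each file-name prefix alone as triangles and other alternatives in grey. Those of tps-1, tps-2, agl-1, tre-3, tre-4 and tre-5 stayed below 0 throughout, and that of tre-1 ranged between -0.44 and 0.74.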

How the data were processed

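The submitters' processing notes name Bowtie 1.1.2 as the aligner, HTSeq and edgeR. HTSeq's version, build and annotation: not given in the sources used here. Positions are therefore left out. Per the labels' protocols the kit was non-directional and 12 cycles of PCR were run. The deposited count files hold raw read counts per feature. The authors' deposited workbook holds CPM per library (not used for any value), and log2 fold changes with p-values from an edgeR exact test. HTSeq's summary lines, 22.2% to 24.0% of reads, were left out. Names came from that workbook and RefSeq, exon lengths and overlaps from Ensembl release 115 (assembly WBcel235).

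The test was that of edgeR 4.0.16, under R 4.3.3 (TMM, filterByExpr, robust quasi-likelihood F-test, two-sided, DR minus AL, Benjamini-Hochberg over all features tested). The procedure was tested on simulated data with the same spread for every feature and folds larger than those of most of the 10 genes. That check does not show how well folds as small as theirs could be detected. CPM printed are TMM-scaled, and log2 CPM used a prior count of 2. P-values measure the spread between these libraries. Correlations used exact two-sided permutation over all orderings. The genes and lists were chosen with earlier results of these data known. All 10 genes are named; of the pathway list, those passing or else the 5 with the smallest p, of which 1 is not reported here; and 1 most similar feature per gene.

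Alternatives were other scalings, filters and tests (DESeq2 1.42.0, limma-voom from limma 3.58.1, the exact test, no robust estimation), an adjusted p under 0.1, blocks and covariates (replicate letter, file-name prefix, moulting gene level, rRNA share), each prefix alone, and each library left out. Added after seeing the data were removal of length trends (lowess, span 0.3) and the authors' filter with the exact test.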

Additional observations from a re-analysis of the deposited data

Results flagged for a closer look

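In each of these measures 1 of the 4 DR libraries lay far from the other 3, measured against their whole range; 36 measures were checked, and chance flags about 1 group in 20. The level summed over the 5 trehalase genes was 89.7 CPM per kilobase in DR D, while DR A, B and C had 69.3 to 72.5 and the AL libraries 68.9 to 88.0. The share of tre-2 in that sum was 14.6% in DR C, against 13.3% to 13.5% in the other DR libraries. Ribosomal RNA took 22.5% of counts in DR D, and reads that HTSeq called ambiguous took 4.81% of reads in DR D, against 3.73% to 3.83% in the other DR libraries. Hypodermis markers summed to 221 CPM in DR B, against 183 to 187 CPM in the other DR libraries. Yolk and eggshell genes summed to 737 CPM in DR C, against 88.3 to 109 CPM. DR C was also the highest DR library for gob-1, tre-4 and agl-1 (47.6, 5.53 and 35.2 CPM). Likewise DR A was the highest for tps-1, tps-2 and tre-3, DR D for gsy-1, tre-1 and tre-2, and DR B for tre-5. The relation of these genes to the flagged measures was not tested.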

How the results depend on the processing

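None of the 10 genes was called under 24 of 25 alternatives, and none of the 24 other pathway genes under 24 of 25. The remaining alternative was the 2nd file-name prefix alone, where DR D is the sole DR library. There tre-1 had a log2 fold change of 0.74 and ogt-1 of -0.68. The median of the 10 genes was -0.23 and -0.20 within the 1st and 2nd prefix, and that of the breakdown genes -0.26 within the 1st. With 1 library left out the median lay between -0.18 and -0.11 for the 10 genes, between -0.18 and -0.08 for synthesis and between -0.25 and -0.10 for breakdown, the last of these without AL C. The sign turned for gob-1 with the rRNA share as a covariate (0.050) and without AL A (-0.17 to 0.055 over libraries left out), for gsy-1 within the 2nd prefix (0.049) and for tre-2 within the 1st (-0.14). For tre-1 it turned within the 1st prefix (-0.44), with the rRNA share as a covariate (-0.12), and without AL B or DR D (-0.094 to 0.29 over libraries left out). The cause was not tested. Whether the replicate letters pair libraries was not tested. Deviations of same-letter libraries correlated at 0.22, 0.27 and -0.10 for A, B and C, against -0.47 to 0.27 for libraries of different letters. With letters as a block, without DR D, 0 of the 10 genes were called, their median was -0.11, and tre-1 stood at -0.067. Over all features, against 2 called, limma-voom called 0, the exact test 24, DESeq2 41, the fit on every feature with a read 77, the block 4 and the 2nd prefix alone 616. Library size alone as the scaling moved the median over all features to -0.03. The counts behind tre-4 and tre-5, 45 to 127, limit what could be seen for them.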
